A study of Mus musculus with 8 samples.

Results

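Amino acid transporter genes were taken as the protein-coding genes whose GENCODE M21 symbol starts with Slc1a, Slc3a, Slc6a, Slc7a, Slc36a, Slc38a or Slc43a and a digit. The rule found 64 genes among the 48440 in the files, in 7 families, and 3 further symbols that matched were not protein-coding and were left out. Their transcripts were counted by strand-specific poly(A) RNA sequencing, with 2 libraries for each of 4 genotypes, in mouse ES cells taken on day 1 of differentiation. The cells came from the C57BL/6J line MK6 and were differentiated without feeder cells in N2/B27 medium with CHIR99021, which activates Wnt signalling. Tbxt Δexon6/Δexon6 cells lack exon 6 of Tbxt, a transcription factor gene of the primitive streak, on both alleles. Only 1 allele lacks it in Tbxt Δexon6/+ cells. The Tbxt insASAY/insASAY line has a pair of human Alu elements inserted into the introns around that exon on both alleles, and wild-type cells carry neither change. The deletion was made in cells grown without feeder cells, and the insertion in cells grown on a layer of embryonic fibroblasts. The insertion also involved selection with a different drug and a later step with Cre recombinase and ganciclovir. The 2 Tbxt Δexon6/Δexon6 libraries came from different clones. Whether the other replicates came from separate clones is not given in the sources used here, so p-values may measure only the spread between these samples.

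Amino acids cross cell membranes through carriers, since they do not diffuse through lipid. The Slc7 light chains carry large neutral or cationic amino acids or cystine, and several of them reach the cell surface only when bound to the Slc3a2 heavy chain. The Slc1 and Slc38 carriers use the sodium gradient to bring in glutamate, alanine, serine and glutamine, the Slc6 carriers bring in taurine, glycine, creatine, proline and neurotransmitters, and the Slc36 carriers move small amino acids together with protons. Dividing cells rely on this supply for protein synthesis, and the kinase complex mTORC1 senses it.

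Libraries held 24618587 to 28445952 reads on genes. Levels are given as counts per 1000000 reads (CPM) with TMM-scaled library sizes. Levels of different genes are compared only as CPM per kb of exon. Tbxt itself had 47 and 42 reads in wild-type, 39 and 54 in Tbxt Δexon6/+, 26 and 22 in Tbxt Δexon6/Δexon6, and 30 and 29 in Tbxt insASAY/insASAY libraries, and a count over the whole gene does not show the loss of an exon. All 10 ES cell markers were tested, and their sum was 1472 to 1526 CPM in the wild-type libraries. It was 981 to 1139 CPM in those of Tbxt Δexon6/Δexon6, 1164 to 1212 CPM in those of Tbxt Δexon6/+ and 1165 to 1211 CPM in those of Tbxt insASAY/insASAY. Dppa5a fell most in CPM in each mutant line, to 183 and 180 CPM in Tbxt Δexon6/+ from 561 and 528 CPM in wild-type libraries. Lin28a was higher in every mutant library, with 537 and 488 CPM in Tbxt Δexon6/+ against 298 and 285 CPM in wild-type. By the calls described below, 2 of the 10 markers were higher and 6 lower in Tbxt Δexon6/+ cells (80% against 13.5% of all tested genes). In Tbxt Δexon6/Δexon6 cells 0 were higher and 5 lower (50% against 12.7%). The Tbxt insASAY/insASAY line had 0 higher and 3 lower (30% against 21.3%). Primitive streak and mesoderm markers summed to only 12.8 to 24.7 CPM. In bulk samples, fewer cells of a type and less RNA per cell cannot be told apart. Replicates of the Tbxt Δexon6/Δexon6 line differed most, with a chi-square per degree of freedom of 11.4 against 2.79 to 3.47 in the other genotypes.

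Of the 64 transporter genes, 47 passed the filter on low counts and could be compared. These were 6 of 7 Slc1 genes, 1 of 2 Slc3 genes, 14 of 21 Slc6 genes, 12 of 16 Slc7 genes, 2 of 4 Slc36 genes, 9 of 11 Slc38 genes and all 3 Slc43 genes. The 17 too low to compare never exceeded 9 reads in a library. Slc6a5, Slc6a18, Slc7a12 and Slc7a13 had 0 reads in all 8 libraries, which allows up to 3 reads in each, or 0.105 to 0.122 CPM. The other 13 were Slc1a7, Slc3a1, Slc6a4, Slc6a12, Slc6a20a, Slc6a20b, Slc6a21, Slc7a9, Slc7a15, Slc36a2, Slc36a3, Slc38a8 and Slc38a11. They include carriers known from kidney, gut and neurons, such as the heavy chain Slc3a1 with its light chain Slc7a9, and the serotonin transporter Slc6a4. Of the tested genes 33 averaged at least 2 CPM, and Slc6a2 and Slc6a11 passed the filter through Tbxt Δexon6/+ only. Slc7a6os matches the naming rule but lies on the strand opposite to Slc7a6 and is not known as a transporter.

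Per length of exon, 5 genes led. Slc7a5, which exchanges large neutral amino acids such as leucine for glutamine, averaged 224 CPM per kb, and Slc3a2, its heavy chain, 178. They were followed by Slc38a4, a sodium-coupled carrier of small neutral and cationic amino acids, at 83.7, the glutamine and neutral amino acid exchanger Slc1a5 at 82.7, and the cationic amino acid carrier Slc7a3 at 41.6. Slc38a4 and Slc1a5 differed by less than the spread between libraries. The cystine and glutamate exchanger Slc7a11 averaged only 0.548 on the same scale.

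**Figure D1:**
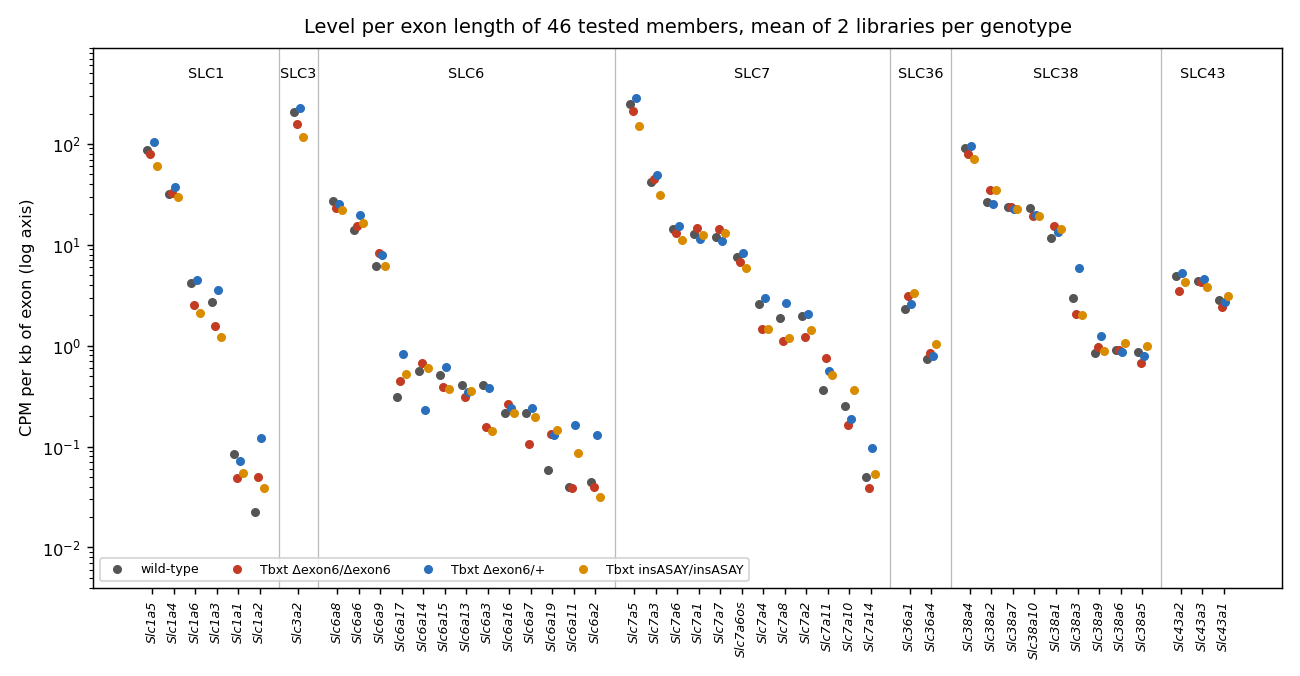
CPM per kb of exon (log axis) for 46 of the tested transporter genes, ordered by level within each family; each point is the mean of the 2 libraries of a genotype. Slc7a5 and Slc3a2 stood highest, at 224 and 178 on average, and many Slc6 genes lay below 1.

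Each mutant line was compared with wild-type. The genotype cannot be told apart here from other differences between the cell lines, such as the way each was made. Calls required an adjusted p under 0.05 (edgeR quasi-likelihood test, Benjamini-Hochberg over 17049 tested genes) and a log2 fold change of more than 0.5 in either direction. In Tbxt Δexon6/Δexon6 cells 2 of the 47 genes were called higher and 7 lower, which is 19.1% against 12.7% of all tested genes. In Tbxt Δexon6/+ cells 10 were called higher and 1 lower, 23.4% against 13.5% of all tested genes, or 8 higher without Slc6a2 and Slc6a11. In Tbxt insASAY/insASAY cells 4 were called higher and 9 lower, 27.7% against 21.3%. By direction, all tested genes were called higher and lower at 6.12% and 6.59% in the first line, 6.6% and 6.89% in the second, and 11.5% and 9.85% in the third. The median log2 fold change of the 47 genes was -0.14, 0.14 and -0.13 in the 3 lines, in that order, where the median of all tested genes was -0.01, 0.00 and -0.01. The 3 comparisons share their wild-type libraries. In all, 22 genes were called in at least 1 line, 13 of them in 1 line, 7 in 2 and only Slc38a3 and Slc7a8 in all 3.

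Counts of calls depended on single libraries. Without replicate 1 of Tbxt Δexon6/Δexon6, 7 genes were called higher in that line instead of 2. Without wild-type replicate 1, 4 were called higher in Tbxt Δexon6/+ cells instead of 10, and 6 and 5 without replicates 1 and 2 of that line. Higher calls in Tbxt insASAY/insASAY cells numbered 2 and 1 without wild-type replicates 1 and 2, instead of 4. The lower calls in Tbxt Δexon6/Δexon6 cells ranged from 6 to 9 and those in Tbxt insASAY/insASAY cells from 8 to 10 when any 1 library was left out.

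**Figure D2:**
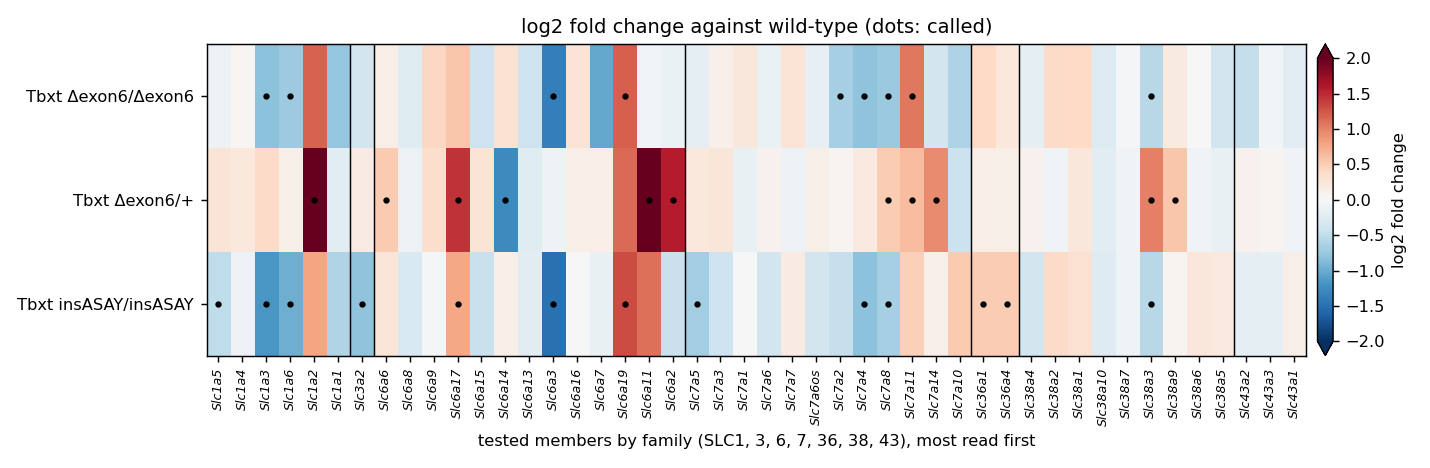
Log2 fold change of 46 tested genes in each mutant line against wild-type (colour scale from -2 to 2), ordered by family and then by mean CPM; a dot marks a call. Slc38a3 and Slc7a8 carry a dot in all 3 rows, and the 2 Slc36 genes only in the row of Tbxt insASAY/insASAY.

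The most abundant pair, the heavy chain Slc3a2 and the light chain Slc7a5, fell in Tbxt insASAY/insASAY cells. Slc7a5 (chr8:121881150-121907694, minus strand) was at 889 and 934 CPM in wild-type, 1042 and 1060 in Tbxt Δexon6/+, 861 and 723 in Tbxt Δexon6/Δexon6, and 541 and 587 CPM in Tbxt insASAY/insASAY libraries. Both Tbxt insASAY/insASAY libraries were below all others, and both Tbxt Δexon6/+ libraries above all others. Relative to wild-type the log2 fold change was -0.69 ± 0.07 (SE) in Tbxt insASAY/insASAY cells (adjusted p = 9.26e-06). In Tbxt Δexon6/+ cells it was 0.21 and in the Tbxt Δexon6/Δexon6 line -0.20, both short of the fold threshold. Slc3a2 (chr19:8706882-8723369, minus strand) was at 702 and 747 CPM in wild-type, 792 and 826 in Tbxt Δexon6/+, 628 and 495 in Tbxt Δexon6/Δexon6, and 398 and 430 CPM in Tbxt insASAY/insASAY libraries. The order of the genotypes was that of Slc7a5, with no overlap between neighbours. Its log2 fold change was -0.81 ± 0.08 (SE) in Tbxt insASAY/insASAY cells (adjusted p = 1.3e-05), and -0.37 in Tbxt Δexon6/Δexon6 cells, where it became -0.54 and was called without replicate 1 of that line.

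As a sum, the light chains were higher relative to their heavy chain in the homozygous lines. The summed light chains that pair with Slc3a2 (Slc7a5, Slc7a6, Slc7a7, Slc7a8, Slc7a10 and Slc7a11), per length, came to 1.35 and 1.33 times Slc3a2 in wild-type libraries. The ratio was 1.38 and 1.35 in Tbxt Δexon6/+, 1.47 and 1.6 in Tbxt Δexon6/Δexon6, and 1.52 and 1.52 in Tbxt insASAY/insASAY libraries. Slc7a5 made up 84.9% to 90.6% of the sum, so the ratio mostly shows Slc7a5 against Slc3a2. Both were lower than wild-type in the homozygous lines, Slc3a2 by more. The homozygous lines were above wild-type in every library, but 2 libraries against 2 allow no exact p below 0.333. Slc7a6, which exchanges cationic for neutral amino acids, was at 64.0 and 67.2 CPM in wild-type, 69.2 and 70.4 in Tbxt Δexon6/+, 58.6 and 60.5 in Tbxt Δexon6/Δexon6, and 50.03 and 51.7 CPM in Tbxt insASAY/insASAY libraries, and was called in none of the 3 lines. Slc7a7, an exchanger of the same kind, was at 39.8 and 38.6 CPM in wild-type, 36.6 and 35.7 in Tbxt Δexon6/+, 46.6 and 48.8 in Tbxt Δexon6/Δexon6, and 42.9 and 44.7 CPM in Tbxt insASAY/insASAY libraries. Its wild-type libraries lay between those of Tbxt Δexon6/+ and the homozygous lines, and no line was called.

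**Figure D3:**
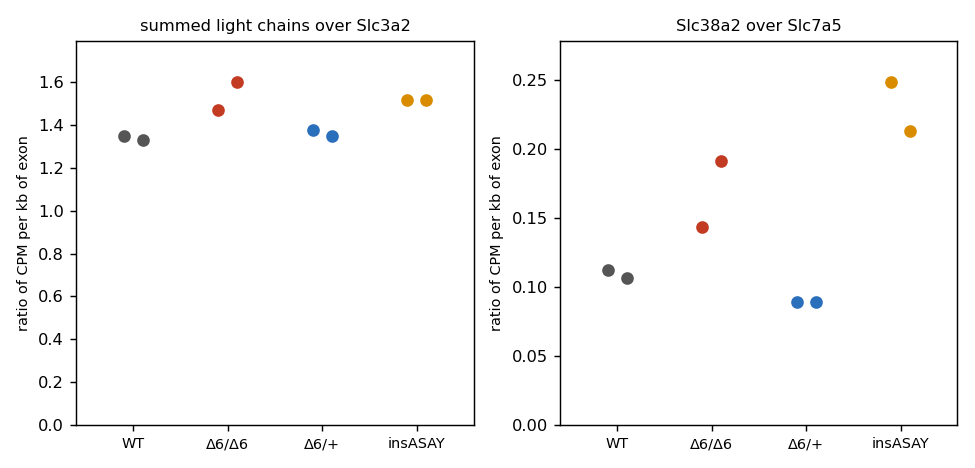
Ratios per library of levels per exon length: summed light chains over the heavy chain Slc3a2 (left) and Slc38a2 over Slc7a5 (right). All 4 libraries of the homozygous lines lie above the wild-type libraries in both panels. The right panel uses Slc38a2, which was chosen after its values were seen.

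Of the other abundant carriers, Slc1a5 was called lower in Tbxt insASAY/insASAY cells. It was at 350 and 373 CPM in wild-type, 416 and 448 in Tbxt Δexon6/+, 357 and 309 in Tbxt Δexon6/Δexon6, and 244 and 264 CPM in Tbxt insASAY/insASAY libraries. The Tbxt insASAY/insASAY libraries were below all others, with a log2 fold change of -0.51 ± 0.07 (SE, adjusted p = 6.74e-05), close to the fold threshold. It moved to -0.46 without wild-type replicate 2 and to -0.45 without replicate 1 of the line, and was not called then. Slc38a4 was at 375 and 395 CPM in wild-type, 397 and 414 in Tbxt Δexon6/+, 341 and 334 in Tbxt Δexon6/Δexon6, and 297 and 299 CPM in Tbxt insASAY/insASAY libraries, a log2 fold change of -0.37 in the last. Slc7a3 was at 153 and 162 CPM in wild-type, 175 and 195 in Tbxt Δexon6/+, 175 and 163 in Tbxt Δexon6/Δexon6, and 116 and 121 CPM in Tbxt insASAY/insASAY libraries, a log2 fold change of -0.41. Neither was called against wild-type, although the Tbxt insASAY/insASAY libraries were the lowest for both. Slc38a2, a sodium-coupled carrier of small neutral amino acids that was singled out after its values were seen, was at 237 and 237 CPM in wild-type, 221 and 226 in Tbxt Δexon6/+, 293 and 328 in Tbxt Δexon6/Δexon6, and 320 and 298 CPM in Tbxt insASAY/insASAY libraries. Its homozygous-line libraries were above all others, with log2 fold changes of 0.39 and 0.38 that stayed under the threshold. Slc38a2 over Slc7a5, per length, was 0.112 and 0.106 in wild-type and 0.248 and 0.213 in Tbxt insASAY/insASAY libraries. It was 0.0892 and 0.0893 in Tbxt Δexon6/+ and 0.143 and 0.191 in Tbxt Δexon6/Δexon6 libraries. The direction of this ratio follows from the values of the 2 genes and is not a separate result.

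Slc1a3, Slc1a6 and Slc7a4 were called lower in both homozygous lines, and Slc7a2 in Tbxt Δexon6/Δexon6 cells. Slc1a3, a glutamate carrier of glia and progenitor cells, was at 23.2 and 23.5 CPM in wild-type, 31.0 and 29.9 in Tbxt Δexon6/+, 16.0 and 10.6 in Tbxt Δexon6/Δexon6, and 9.40 and 11.4 CPM in Tbxt insASAY/insASAY libraries. All 4 homozygous libraries were below wild-type, with log2 fold changes of -0.82 ± 0.14 (SE, adjusted p = 0.00106) in Tbxt Δexon6/Δexon6 and -1.17 ± 0.15 (SE, adjusted p = 4.64e-05) in Tbxt insASAY/insASAY cells. Slc1a6, another glutamate carrier, was at 8.95 and 9.04 CPM in wild-type, 10.1 and 9.24 in Tbxt Δexon6/+, 6.03 and 4.84 in Tbxt Δexon6/Δexon6, and 4.15 and 4.98 CPM in Tbxt insASAY/insASAY libraries. Its homozygous libraries were again the lowest, with log2 fold changes of -0.73 and -0.98. Slc7a4, a relative of the cationic amino acid carriers, was at 10.4 and 10.9 CPM in wild-type, 11.2 and 13.2 in Tbxt Δexon6/+, 6.28 and 5.94 in Tbxt Δexon6/Δexon6, and 5.94 and 6.15 CPM in Tbxt insASAY/insASAY libraries, with log2 fold changes of -0.80 and -0.82 in the homozygous lines. The homozygous libraries again fell below all others. Slc7a2, a cationic amino acid carrier, was at 17.0 and 18.7 CPM in wild-type, 18.9 and 18.4 in Tbxt Δexon6/+, 12.6 and 9.94 in Tbxt Δexon6/Δexon6, and 12.6 and 13.3 CPM in Tbxt insASAY/insASAY libraries. It was called in Tbxt Δexon6/Δexon6 cells at -0.67 (adjusted p = 0.00076), and its value of -0.46 in Tbxt insASAY/insASAY cells became -0.53 and called without wild-type replicate 1.

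Slc38a3 and Slc7a8 were called lower in both homozygous lines and higher in the heterozygous line. Slc38a3 (chr9:107650634-107669530, minus strand), a sodium-coupled carrier of glutamine, was at 15.3 and 16.2 CPM in wild-type, 32.4 and 30.4 in Tbxt Δexon6/+, 11.5 and 9.98 in Tbxt Δexon6/Δexon6, and 10.7 and 10.6 CPM in Tbxt insASAY/insASAY libraries. The Tbxt Δexon6/+ libraries stood far above, and the homozygous libraries below, those of wild-type. The log2 fold changes were 1.00 ± 0.09 (SE, adjusted p = 3.31e-06) in Tbxt Δexon6/+, -0.55 ± 0.10 (SE, adjusted p = 0.00114) in Tbxt Δexon6/Δexon6 and -0.56 ± 0.10 (SE, adjusted p = 0.00043) in Tbxt insASAY/insASAY cells. The value in Tbxt Δexon6/Δexon6 cells was -0.44, and not called, without replicate 2 of that line. Slc7a8 (chr14:54722209-54781946, minus strand), a light chain for neutral amino acids, was at 8.63 and 10.2 CPM in wild-type, 13.1 and 13.7 in Tbxt Δexon6/+, 6.60 and 4.62 in Tbxt Δexon6/Δexon6, and 6.01 and 5.85 CPM in Tbxt insASAY/insASAY libraries. No genotype but the homozygous pair overlapped, and the log2 fold change was 0.51 in Tbxt Δexon6/+ (adjusted p = 0.0144), -0.75 in Tbxt Δexon6/Δexon6 (adjusted p = 0.00279) and -0.66 in Tbxt insASAY/insASAY cells (adjusted p = 0.00317). The rise in Tbxt Δexon6/+ cells was lost without wild-type replicate 1 (0.39), replicate 1 (0.54, adjusted p = 0.0602) or replicate 2 (0.47) of the line.

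**Figure D4:**
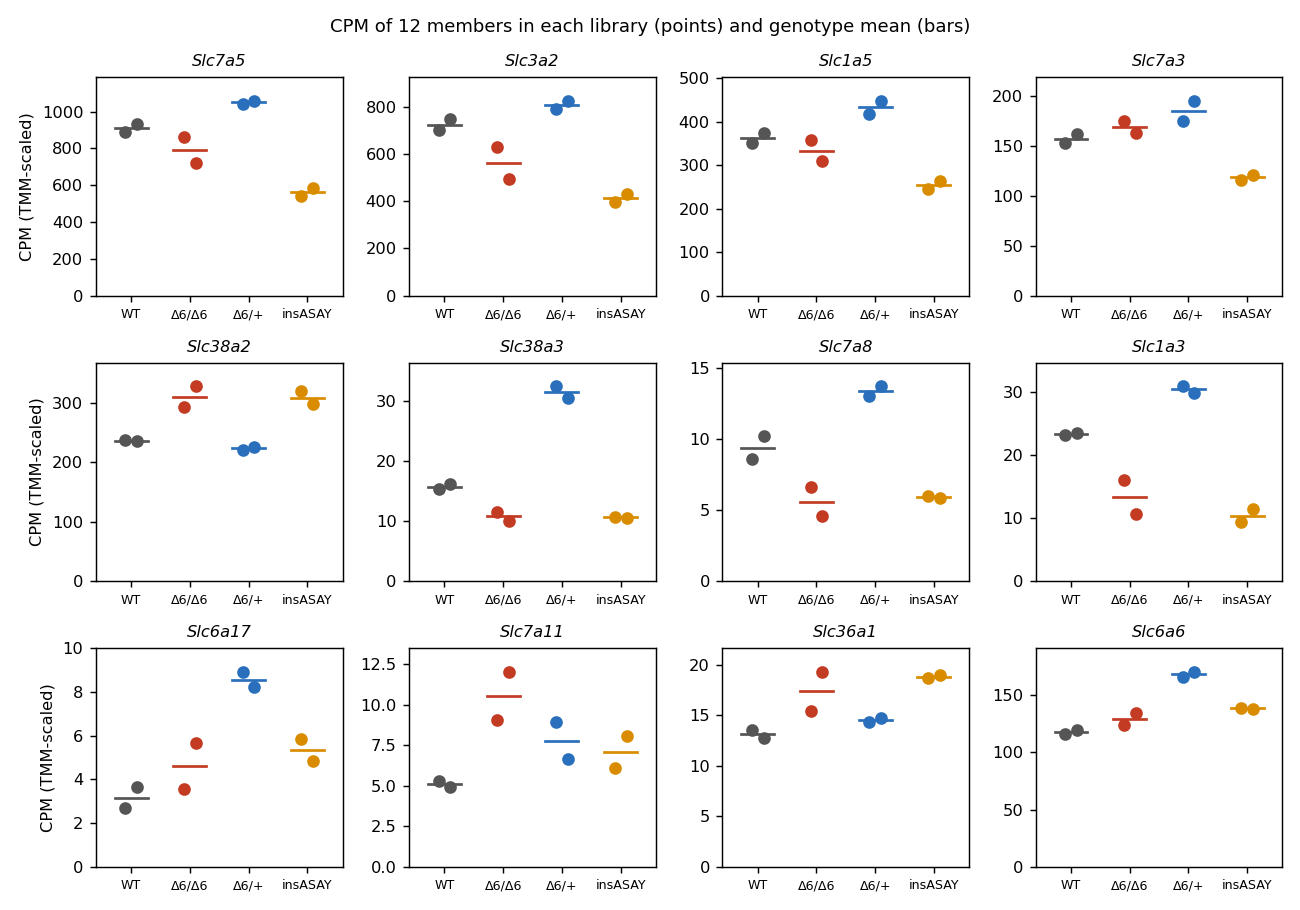
CPM with TMM-scaled library sizes for 12 transporter genes; points are the 2 libraries of each genotype and horizontal bars their mean, on axes that start at 0. Slc7a5, Slc3a2, Slc1a5 and Slc7a3 are lowest in Tbxt insASAY/insASAY libraries, and Slc38a3, Slc7a8, Slc1a3 and Slc6a17 are highest in Tbxt Δexon6/+ libraries.

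Both tested Slc36 genes were called higher in Tbxt insASAY/insASAY cells, close to the fold threshold. Slc36a1, a proton-coupled carrier of small amino acids at the lysosome and cell surface, was at 13.5 and 12.7 CPM in wild-type, 14.3 and 14.7 in Tbxt Δexon6/+, 15.4 and 19.3 in Tbxt Δexon6/Δexon6, and 18.6 and 18.9 CPM in Tbxt insASAY/insASAY libraries. Both wild-type libraries were the lowest, and the log2 fold change was 0.51 ± 0.11 (SE, adjusted p = 0.00152) in Tbxt insASAY/insASAY cells, which became 0.47 and lost its call without wild-type replicate 2. In Tbxt Δexon6/Δexon6 cells it was 0.40, and 0.56 with a call without replicate 1 of that line. Slc36a4, a related carrier of proline and tryptophan, was at 4.48 and 5.21 CPM in wild-type, 5.19 and 5.23 in Tbxt Δexon6/+, 4.45 and 6.71 in Tbxt Δexon6/Δexon6, and 7.47 and 6.26 CPM in Tbxt insASAY/insASAY libraries. The Tbxt Δexon6/Δexon6 libraries spanned the wild-type ones, and the Tbxt insASAY/insASAY libraries did not overlap wild-type. Its call in Tbxt insASAY/insASAY cells (0.50, adjusted p = 0.0356) was lost by DESeq2 (adjusted p = 0.0778), with no filter on low counts (0.50) and without wild-type replicate 1 (0.40), wild-type replicate 2 (0.61, adjusted p = 0.0667), Tbxt insASAY/insASAY replicate 1 (0.37), Tbxt Δexon6/Δexon6 replicate 1 (0.50) or either Tbxt Δexon6/+ replicate (0.50).

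In Tbxt Δexon6/+ cells 2 further carriers were called higher in the range above 10 CPM. Slc6a6, the taurine carrier, was at 116 and 119 CPM in wild-type, 166 and 170 in Tbxt Δexon6/+, 124 and 135 in Tbxt Δexon6/Δexon6, and 139 and 138 CPM in Tbxt insASAY/insASAY libraries. Every mutant library was above wild-type, with a log2 fold change of 0.52 ± 0.05 (SE, adjusted p = 7.14e-06) in Tbxt Δexon6/+ cells, which fell to 0.49 and 0.50 and lost its call without wild-type replicate 1 or replicate 2 of the line. Slc38a9, a lysosomal arginine sensor of the mTORC1 pathway, was at 14.5 and 13.8 CPM in wild-type, 20.6 and 21.2 in Tbxt Δexon6/+, 14.9 and 17.3 in Tbxt Δexon6/Δexon6, and 15.4 and 14.0 CPM in Tbxt insASAY/insASAY libraries. Its Tbxt Δexon6/+ libraries were above all others, at 0.56 ± 0.10 (SE, adjusted p = 0.000684) on the log2 scale.

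Of the called members on chromosome 3, Slc6a17 and Slc7a11 had neighbours that moved in the heterozygous line too, while the 49 tested neighbours of Slc7a14 within 5 Mb had a median of 0.02 there, with 3 called higher and 0 lower. Over the 848 tested genes of chromosome 3, the median log2 fold change in Tbxt Δexon6/+ cells was 0.32, with 242 called higher and 64 lower. Slc6a17 (chr3:107467543-107518018, minus strand), a vesicular carrier of neutral amino acids, was at 2.67 and 3.65 CPM in wild-type, 8.93 and 8.21 in Tbxt Δexon6/+, 3.56 and 5.68 in Tbxt Δexon6/Δexon6, and 5.87 and 4.87 CPM in Tbxt insASAY/insASAY libraries. Its Tbxt Δexon6/+ libraries were above all others, at 1.44 ± 0.21 (SE, adjusted p = 0.000181). The 98 tested genes within 5 Mb had a median of 0.48 in the same comparison, with 38 called higher and 1 lower. The rise of Slc6a17 in Tbxt insASAY/insASAY cells (0.77, adjusted p = 0.0113) was lost without wild-type replicate 1 (0.56) or replicate 1 of the line (0.62), and its neighbours had a median of 0.03 there. The part of the chromosome in the values of Slc6a17 was not tested.

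Slc7a11 (chr3:49892526-50443614, minus strand), the light chain that brings in cystine for glutathione synthesis, was called higher in 2 lines. It was at 5.27 and 4.95 CPM in wild-type, 8.90 and 6.66 in Tbxt Δexon6/+, 9.07 and 12.0 in Tbxt Δexon6/Δexon6, and 6.12 and 8.09 CPM in Tbxt insASAY/insASAY libraries. Every mutant library was above both wild-type libraries, with those of Tbxt Δexon6/Δexon6 the highest and the other mutant lines overlapping. The log2 fold change was 1.05 ± 0.18 (SE, adjusted p = 0.00105) in Tbxt Δexon6/Δexon6 cells, where its 42 tested neighbours within 5 Mb had a median of -0.04. In Tbxt Δexon6/+ cells it was 0.61 ± 0.19 (SE, adjusted p = 0.0267), the neighbours had a median of 0.31, and the call was lost without wild-type replicate 1 (0.65, adjusted p = 0.092), wild-type replicate 2 (0.56) or replicate 1 of the line (0.38). The Tbxt insASAY/insASAY value was 0.47, and 0.66 with a call without replicate 1 of that line.

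The promoter of Slc7a11 is known for amino acid response elements, to which the factor Atf4 binds. The letters TGATGNAAN, an element bound by C/EBP and Atf factors, were searched on both strands in RefSeq promoter windows (GRCm38.p6) of 250 bases before and 50 after each start. They were in 3.95% of 32851 windows, and in 5 of the 67 windows of the 46 transporter genes that had one. These 5 windows belonged to Slc7a11, Slc7a7, Slc1a4 and Slc6a21. The bases before the start are shown for Slc7a11, the only one of these called against wild-type, and for Slc7a7. They lie at chr3:50443614-50443863 and chr14:54417945-54418194, both on the minus strand. Matches that lie wholly before the start are in capitals.
Slc7a11: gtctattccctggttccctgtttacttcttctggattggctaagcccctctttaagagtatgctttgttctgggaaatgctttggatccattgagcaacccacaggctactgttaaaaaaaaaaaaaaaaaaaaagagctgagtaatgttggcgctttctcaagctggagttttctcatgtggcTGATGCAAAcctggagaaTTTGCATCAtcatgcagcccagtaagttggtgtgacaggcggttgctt
Slc7a7: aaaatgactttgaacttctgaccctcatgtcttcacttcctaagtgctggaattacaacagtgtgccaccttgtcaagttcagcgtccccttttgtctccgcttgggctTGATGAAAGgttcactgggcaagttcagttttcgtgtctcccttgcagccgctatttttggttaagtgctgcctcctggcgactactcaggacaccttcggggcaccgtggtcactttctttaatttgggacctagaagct
Slc7a11 held 2 matches on opposite strands, from base -66 to -58 and from -48 to -40 before its start. In the window shown, Slc7a7 held the marked match from -141 to -133 and another, TGATGCAAC, from -1 to 8. The latter runs past the start and is not marked. The other window of Slc7a7 overlaps the one shown and held that same site, at -243 to -235 from its own start. The count of windows therefore holds this site more than once. The letters TGACNNNGC, the core of the antioxidant element bound by Nrf2, were in 12.4% of all windows and in 11 of the 67, those of Slc38a2, Slc36a1, Slc7a1 and Slc7a6 among them. The windows of Slc7a6 overlap as well and hold the same site. A match is a sequence feature and does not show binding.

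Another 7 genes under 2 CPM were called against wild-type on few reads, such as the 3 to 21 reads per library of Slc6a2. In Tbxt Δexon6/+ cells the glutamate carrier Slc1a2 (2.42), the GABA carrier Slc6a11 (2.01), the noradrenaline carrier Slc6a2 (1.57) and Slc7a14 (0.95) were higher and Slc6a14 was lower (-1.27). The dopamine carrier Slc6a3 was lower in the homozygous Tbxt Δexon6/Δexon6 (-1.36) and the Tbxt insASAY/insASAY line (-1.49), and Slc6a19 was higher in both (1.19 and 1.30). Calls of Slc6a2, Slc6a11, Slc6a14 and Slc7a14 were lost when either of 2 or more libraries was left out, and so were both calls of Slc6a19. The calls of Slc6a3 and Slc1a2 against wild-type held under every alternative that tested them.

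Between the mutant lines, the heterozygous line stood apart from both homozygous lines. Tbxt Δexon6/+ against Tbxt Δexon6/Δexon6 cells had 16 of the 47 genes called higher and 1 lower, 36.2% against 22.2% of all tested genes (11.2% higher and 11.0% lower), or 14 higher without Slc6a2 and Slc6a11, which passed the filter only where they are high. Tbxt insASAY/insASAY against Tbxt Δexon6/+ cells had 2 higher and 17 lower, 40.4% against 27.5% (14.6% higher and 13.0% lower), or 16 lower without such genes. Between the homozygous lines 0 were called higher and 2 lower, 4.26% against 5.16% (2.79% higher and 2.38% lower). At an unadjusted p under 0.05 in edgeR 4 were higher and 12 lower, while DESeq2 called 0 higher and 3 lower, Slc7a5 (-0.50) among them. Without replicate 2 of Tbxt Δexon6/Δexon6, 4 were lower, including Slc7a5 (-0.61), Slc3a2 (-0.60) and Slc1a3 (-0.62). The 2 lower were Slc7a3 (-0.51, adjusted p = 0.000132), which lost its call without replicate 1 of Tbxt Δexon6/Δexon6 (-0.47) or of Tbxt insASAY/insASAY (-0.48), and Slc7a11 (-0.57, adjusted p = 0.0439), which lost it without either wild-type replicate (-0.58), Tbxt Δexon6/Δexon6 replicate 2 (-0.35) or Tbxt insASAY/insASAY replicate 1 (-0.39). The largest differences among genes of at least 2 CPM were those of Slc38a3, Slc1a3 and Slc7a8. Tbxt insASAY/insASAY against Tbxt Δexon6/+ cells gave -1.56, -1.55 and -1.17 for them (adjusted p = 8.21e-08, 2.46e-06 and 2.91e-05), and Tbxt Δexon6/+ against Tbxt Δexon6/Δexon6 cells 1.55, 1.20 and 1.26. Slc7a5 and Slc3a2 differed by -0.90 and -0.97 between Tbxt insASAY/insASAY and Tbxt Δexon6/+ cells.

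Calls are given by family as counts, and differences between families were not tested. Of 6 tested Slc1 genes 3 were lower in Tbxt insASAY/insASAY and 2 in Tbxt Δexon6/Δexon6 cells, with medians of -0.56 and -0.43, where 21.3% and 12.7% of all tested genes were called in either direction. Of 12 tested Slc7 genes 3 were lower in each of these lines, and 3 were higher in Tbxt Δexon6/+ and 1 in Tbxt Δexon6/Δexon6 cells. In all, 25.0% were called in Tbxt insASAY/insASAY cells, 25.0% in Tbxt Δexon6/+ cells, where the share of all genes was 13.5%, and 33.3% in the Tbxt Δexon6/Δexon6 line. Of 14 tested Slc6 genes, 4 were higher and 1 lower in Tbxt Δexon6/+ cells (35.7% against 13.5%), or 2 higher without Slc6a2 and Slc6a11. Among the 9 tested Slc38 genes calls were few, with Slc38a3 in every line and Slc38a9 in Tbxt Δexon6/+. The 3 Slc43 genes, carriers of large neutral amino acids except the purine carrier Slc43a3, had a median of 0.06 in Tbxt Δexon6/+ cells, of -0.23 in the Tbxt Δexon6/Δexon6 line and of -0.20 in the Tbxt insASAY/insASAY line. Slc43a2 was higher in Tbxt Δexon6/+ than in Tbxt Δexon6/Δexon6 cells (0.57, adjusted p = 1.31e-05).

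Some markers of other cell types moved with genotype too. The summed markers of embryonic fibroblasts, 7 of 10 of which were tested, were 44.3 to 49.1 CPM in the wild-type and 44.4 to 44.7 CPM in the Tbxt Δexon6/+ libraries. They were 30.6 to 37.7 CPM in the Tbxt Δexon6/Δexon6 and 21.4 to 21.5 CPM in the Tbxt insASAY/insASAY libraries. Of the 7, Tbxt Δexon6/Δexon6 cells had 0 higher and 3 lower (42.9% against 12.7% of all tested genes). Tbxt insASAY/insASAY cells had 0 higher and 6 lower (85.7% against 21.3%). In Tbxt Δexon6/+ cells 2 were higher and 1 lower (42.9% against 13.5%), although the sum was near that of wild-type. Summed neural progenitor markers were 117 to 118 CPM in the wild-type, 118 to 119 CPM in the Tbxt Δexon6/+, 160 to 205 CPM in the Tbxt Δexon6/Δexon6 and 128 to 138 CPM in the Tbxt insASAY/insASAY libraries. Most of this sum was Nes, a filament gene of progenitor cells, which rose in Tbxt Δexon6/Δexon6 cells (0.81) as the 1 of 8 tested markers called there, against a list median of -0.21. The heterozygous line had 3 of the 8 called higher and 0 lower, the transcription factor genes Sox1 (2.04), Zic1 (1.70) and Pax6 (1.31), which the sum does not show. Their part in the rise of carriers in that line was not tested. Endoderm markers summed to 10.1 to 15.8 CPM, with 1 of 10 at 0 reads throughout. Of 7 tested, 1 was called lower in Tbxt Δexon6/Δexon6 and 1 higher in Tbxt Δexon6/+ cells (14.3% each). The Tbxt insASAY/insASAY line had 0 called. The fibroblast sum and carriers such as Slc1a3, Slc7a2 and Slc7a8 were lower together in the homozygous lines, and its part in their values was not tested. Whether the earlier growth of the Tbxt insASAY/insASAY line on fibroblasts bears on its fibroblast sum was not tested either.

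Genes that depend on or respond to amino acid supply were counted beside the carriers, and no list was tested as a whole. Their calls are read against all tested genes, of which 13.5% were called in the heterozygous line, 12.7% in the Tbxt Δexon6/Δexon6 line and 21.3% in the Tbxt insASAY/insASAY line. A list of 25 genes held Atf4, the factor induced when amino acids run short, and its targets. Of the 25, 2 rose and 8 fell in Tbxt insASAY/insASAY cells, with a median of -0.43 (40% called). Atf4 itself was at 541 and 528 CPM in wild-type and 383 and 411 CPM in Tbxt insASAY/insASAY libraries. It was at 482 and 491 CPM in Tbxt Δexon6/+ and 596 and 527 CPM in Tbxt Δexon6/Δexon6 libraries. Ddit3, a transcription factor of prolonged stress, fell (-2.13) and so did Trib3, an inhibitor of Akt signalling (-0.87), while Stc2, a secreted glycoprotein, rose (0.98). Slc7a5, Slc3a2 and other carriers are known targets of Atf4 as well, and the part of Atf4 in their values was not tested. In Tbxt insASAY/insASAY cells Slc7a5 was at -0.69 and Slc3a2 at -0.81 on the log2 scale. Slc7a11, whose promoter is known for elements bound by Atf4, was at 0.47 there and not called. Of the 25 listed genes, the Tbxt Δexon6/Δexon6 line had 3 higher and 2 lower (20% called, median 0.06), and the heterozygous line 2 and 2 (16%, median 0.03). Of 20 cytosolic aminoacyl-tRNA synthetases, which load amino acids onto tRNA, 3 were lower in Tbxt insASAY/insASAY cells (15.0%, under the share of all genes), Yars (-0.67), Aars (-0.67) and Eprs (-0.50). Eprs was at the fold threshold and lost its call under several alternatives, among them DESeq2 size factors, unstranded counts and the omission of wild-type replicate 1 (-0.49) or replicate 1 of the line (-0.48). Sars (0.58), a gene of chromosome 3, was the 1 called higher in Tbxt Δexon6/+ cells (5.0%). In Tbxt Δexon6/Δexon6 cells edgeR called 0, with 5 higher and 5 lower at an unadjusted p under 0.05, and DESeq2 called 0.

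Of 35 genes of amino acid sensing by mTORC1, Tbxt Δexon6/Δexon6 cells had 3 higher and 2 lower, Tbxt Δexon6/+ cells had 4 higher and the Tbxt insASAY/insASAY line 3 higher. These are 14.3%, 11.4% and 8.57%, near or under the shares of all tested genes. The Rag GTPase genes Rraga and Rragb, which bring mTORC1 to the lysosome, rose by 0.66 and 0.64 in Tbxt Δexon6/Δexon6 and by 0.66 and 0.65 in Tbxt insASAY/insASAY cells. Of 17 tested amino acid carriers of other families, 2 were lower in each homozygous line (11.8% called in each), Slc16a10, a carrier of aromatic amino acids (-0.51 and -1.05), and the vesicular GABA carrier Slc32a1 (-1.75 and -1.83). The smaller fall of Slc16a10 lost its call by DESeq2 (-0.49) and without replicate 2 of Tbxt Δexon6/Δexon6 (-0.38). The heterozygous line had 2 higher, the mitochondrial serine carrier Sfxn1 (1.11) and Slc25a44 (0.78), and 2 lower (23.5%). Of 26 enzymes of amino acid breakdown and of proline, glutamine and threonine metabolism, 1 rose and 3 fell in Tbxt Δexon6/Δexon6, 4 fell in Tbxt Δexon6/+, and 4 rose and 4 fell in Tbxt insASAY/insASAY cells, which is 15.4%, 15.4% and 30.8%. Glud1, glutamate dehydrogenase, was lower in all 3 lines (-0.54, -0.50 and -0.57 in the same order), and without replicate 2 of Tbxt Δexon6/Δexon6 (-0.46) or replicate 1 of Tbxt Δexon6/+ (-0.48) the call in that line was lost, as it was by DESeq2 in Tbxt Δexon6/+ cells (-0.50). Of 11 tested Nrf2 targets and glutathione genes, 2 rose in Tbxt Δexon6/Δexon6, 3 fell in Tbxt Δexon6/+, and 3 rose and 1 fell in Tbxt insASAY/insASAY cells (18.2%, 27.3% and 36.4%), with the antioxidant enzyme gene Srxn1 at 1.35, -0.88 and 1.32 in these lines.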

How the data were processed

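Poly(A) RNA of 8 samples, 2 per genotype, was sequenced on 1 lane. The authors mapped reads to mm10 with STAR 2.7.2a and deposited whole-number counts of reads per gene without normalization, in 3 columns by strand. The fourth column, which counts reads whose second mate matches the transcript's strand, was used, since it holds nearly all stranded reads. STAR's summary lines, present in 7 of 8 files, stayed out. Groups were taken from the labels.

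Symbols, coordinates and exon lengths were taken from GENCODE M21 on GRCm38, joined by gene ID without version (48058 of 48440 matched). The authors' annotation release is not given in the sources used here, so exon lengths may differ from theirs. R 4.3.3 with edgeR 4.0.16 was used: filterByExpr (minimum count 10, minimum total 15), TMM, a quasi-likelihood model of the 8 libraries together, 1 term for each genotype, 4 residual degrees of freedom, and Benjamini-Hochberg adjustment over 17049 genes. Alternatives used DESeq2 1.42.0. The steps were tested on simulated counts. Tables and plots were made with Python 3.11.15, numpy 2.4.6, pandas 2.3.3 and matplotlib 3.10.9.

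Values in every library are given for genes of at least 2 CPM called against wild-type (up to 10 per direction and line), for the heavy chains and Slc7 light chains at that level, and for the 5 highest per length. Slc38a2 and the genes under 2 CPM were added after their values were seen. The members and gene lists were chosen with earlier results of these data known. Overlapping genes on the other strand share exons with some members, the largest shares being those of Slc1a1, Slc6a9 and Slc3a1. The values of 1 tested member are not reported here, and it is counted in the totals but not plotted.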

Additional observations from a re-analysis of the deposited data

Results flagged for a closer look

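Slc38a3 and Slc7a8 drew a closer look because the heterozygous and homozygous lines moved in opposite directions against wild-type, and the direct tests between those lines passed the threshold. Tbxt Δexon6/+ against Tbxt Δexon6/Δexon6 cells differed by 1.55 for Slc38a3 and by 1.26 for Slc7a8 on the log2 scale. Tbxt insASAY/insASAY against Tbxt Δexon6/+ cells differed by -1.56 for Slc38a3 and by -1.17 for Slc7a8. These comparisons share the Tbxt Δexon6/+ libraries.

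Reads on the strand that was not counted were found over many members, with up to 186 in a library for Slc7a5. They drew a closer look for 2 members with few counted reads. Slc3a1 had up to 124 such reads in a library and up to 7 counted ones. Of its exon bases, 26.46% lie under exons of Prepl on the other strand. Slc7a10 had up to 42 such reads and up to 22 counted ones, and 17.86% of its exon bases lie under Lrp3. Their origin was not tested.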

How the results depend on the processing

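Of 71 called differences of transporter genes, 1008 values under the alternatives kept direction and call and 100 kept direction only, with no change of sign. With another scaling (DESeq2 size factors in edgeR) no call of a transporter gene changed. Higher calls in Tbxt Δexon6/Δexon6 against wild-type numbered 1 instead of 2 by DESeq2, with 10 counts in every library, with only the 2 genotypes fitted, and without the genes of chromosome 3, which was added after seeing the data, and 4 with no filter. Higher calls in Tbxt Δexon6/+ fell from 10 to 6 with 10 counts in every library, and those in Tbxt insASAY/insASAY from 4 to 2 by DESeq2. Between the homozygous lines, unstranded counts gave 1 higher instead of 0 and 1 lower instead of 2, and fitting only these genotypes or leaving out chromosome 3 gave 1 lower. Tbxt insASAY/insASAY against Tbxt Δexon6/+ had 1 higher instead of 2 by DESeq2 and with 10 counts in every library. The filter on counts in every library removes low genes by construction. Leaving out chromosome 3 removes Slc7a11 itself, a called gene in both comparisons where that setting lowered the count. Those drops are therefore fixed by the removal. Causes of the other changes were not tested.

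With replicate number as a block, 1 instead of 2 genes was called higher in Tbxt Δexon6/Δexon6 against wild-type and 1 instead of 2 lower between the homozygous lines. The numbers share no label beyond the number, and deviations of same-numbered libraries correlated at -0.00971 to 0.0494 over 17049 genes, so the pairing was not used.

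Leaving out 1 library at a time, higher and lower calls ranged from 1 to 7 and 6 to 9 in Tbxt Δexon6/Δexon6 against wild-type, 4 to 10 and 0 to 1 in Tbxt Δexon6/+, and 1 to 4 and 8 to 10 in Tbxt insASAY/insASAY. They ranged from 12 to 16 and 1 to 3 in Tbxt Δexon6/+ against Tbxt Δexon6/Δexon6, 0 to 2 and 0 to 4 in Tbxt insASAY/insASAY against Tbxt Δexon6/Δexon6, and 1 to 2 and 14 to 17 in Tbxt insASAY/insASAY against Tbxt Δexon6/+. The lone library left in a genotype is then assumed to vary like the others. Changes of sign were limited to uncalled differences. Over these omissions, Tbxt insASAY/insASAY against Tbxt Δexon6/Δexon6 cells gave -0.05 to 0.28 for Slc36a1, -0.10 to 0.08 for Slc38a2 (0.00 with 10 counts in every library), -0.12 to 0.08 for Slc38a3, -0.10 to 0.59 for Slc6a17, -0.06 to 0.01 for Slc7a4 and -0.16 to 0.35 for Slc7a8. Against wild-type, Slc36a4 ranged from -0.12 to 0.48 in Tbxt Δexon6/Δexon6 and from -0.00 to 0.22 in Tbxt Δexon6/+, Slc38a9 from -0.02 to 0.12 in Tbxt insASAY/insASAY and Slc7a2 from -0.01 to 0.13 in Tbxt Δexon6/+ cells. Tbxt Δexon6/+ against Tbxt Δexon6/Δexon6 cells gave -0.37 to 0.22 for Slc36a4, and Tbxt insASAY/insASAY against Tbxt Δexon6/+ cells -0.35 to 0.09 for Slc7a11.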
